A study of Mus musculus with 8 samples.

Results

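Small RNA from MERVL and MaLR copies was followed in mouse sperm of an ethanol group and a control group collected after alcohol cessation. The members are the transposon rows of the count table whose element name begins with MERVL, MT2, MTA, MTB, MTC, MTD, MTE, ORR1 or MLT. A row is 1 numbered copy on 1 strand, and the rule took 130578 of 783825 transposon rows, which are 118836 distinct copies of 145 of 1121 element names. Summing the copies of a name on each strand gave 284 of 2189 transposon name and strand features. The table numbers the copies and gives no positions for them, and copy lengths are not used here, so the values are counts and not levels per base. Most of these names are of that kind: 107 are annotated as ERVL-MaLR and 18 as ERVL, the family of MERVL. The other 20, all with names beginning MLTR, are annotated as ERV1 (3 names) or ERVK (17 names), so they are neither MERVL nor MaLR. The rule takes them, and they are included in the totals over all members unless a value is said to leave them out.

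MERVL is a mouse endogenous retrovirus whose internal part is flanked by MT2_Mm repeats, and its transcription marks the early cleavage-stage embryo and embryonic stem cells that resemble it. MaLR elements are non-autonomous LTR retrotransposons of the same broad lineage. Within them the MT and ORR1 groups belong to rodents, the MLT1 group is older and shared with other mammals, and LTRs of the MT group, MTA and MTC among them, act as promoters in mouse oocytes. In the male germ line transposons are restrained by piRNAs, small RNAs cut from long precursor transcripts of genomic piRNA clusters. RNA antisense to an element can pair with its transcript, whereas sense RNA can come from the transcript itself, from a cluster that holds a copy, or from a host transcript that runs through one.

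The 4 ethanol and 4 control libraries were all labelled as mouse sperm, with treatment as the labelled difference. Sample codes were written in one style for ethanol replicates 1 and 2 and in another for 3 and 4, and the meaning of the codes is not given. The sources used here do not give strain, age, dose, route or the number of animals behind each library. Nothing in the labels says that the replicates of a group are separate animals, so p-values measure the spread between these samples, which may be technical. Library totals ran from 3481865 to 6975180 counts in the ethanol group and from 4365887 to 4921827 in the control group. All 10 transcripts listed as markers of sperm and spermatids had enough counts to be tested, and 0 of the 10 passed in either direction. Their median log2 fold change of ethanol over control was -0.51. Markers of epididymal epithelium, the lining of the duct that sperm pass through, summed to 1044 to 14384 CPM (counts scaled for library size with TMM factors) in ethanol libraries, against 460 to 946 in control libraries. The highest value was that of ethanol replicate 2, which also had the fewest counts of all libraries. piRNA clusters took 17.2%, 8.0%, 23.1% and 9.51% of the counts of ethanol replicates 1 to 4, against 15.6%, 9.75%, 13.4% and 16.7% of those of control replicates 1 to 4.

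MERVL and MaLR names together took 1.89%, 1.0%, 2.22% and 1.16% of the counts of ethanol replicates 1 to 4, against 1.94%, 1.37%, 1.58% and 1.80% of those of control replicates 1 to 4. The ethanol libraries lay on both sides of the control libraries, with replicate 3 the highest and replicate 2 the lowest of all. The means were 1.57% ± 0.583 in ethanol sperm and 1.67% ± 0.251 in control sperm (SD, n = 4 each), a gap smaller than the spread within either group. Without the MLTR names they were 1.48% ± 0.548 in ethanol and 1.58% ± 0.235 in control sperm. Of all transposon counts the members made up 17.4% ± 2.30 in ethanol and 16.8% ± 0.868 in control sperm. The ethanol libraries low in MERVL and MaLR counts, replicates 2 and 4, were also the ones low in piRNA cluster counts. In bulk RNA, fewer cells of a type and less RNA per cell cannot be told apart.

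The counts were uneven across name groups. ORR1, with 29 names, held 45.7% of all MERVL and MaLR counts, MLT1 with 58 names held 15.7% and MTE with 9 names held 10.6%. MTC held 5.79%, the MLTR names 5.71%, MTD 5.16%, MLT2 4.15%, MT2 3.91% and MERVL itself 1.22%. MTB, MLT-int and MTA each held less than 1 in 100 of the counts. The order did not follow the number of copies: MLT1 had 109187 counts on 14458 rows, and MTD 35915 counts on 12861 rows.

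**Figure D1:**
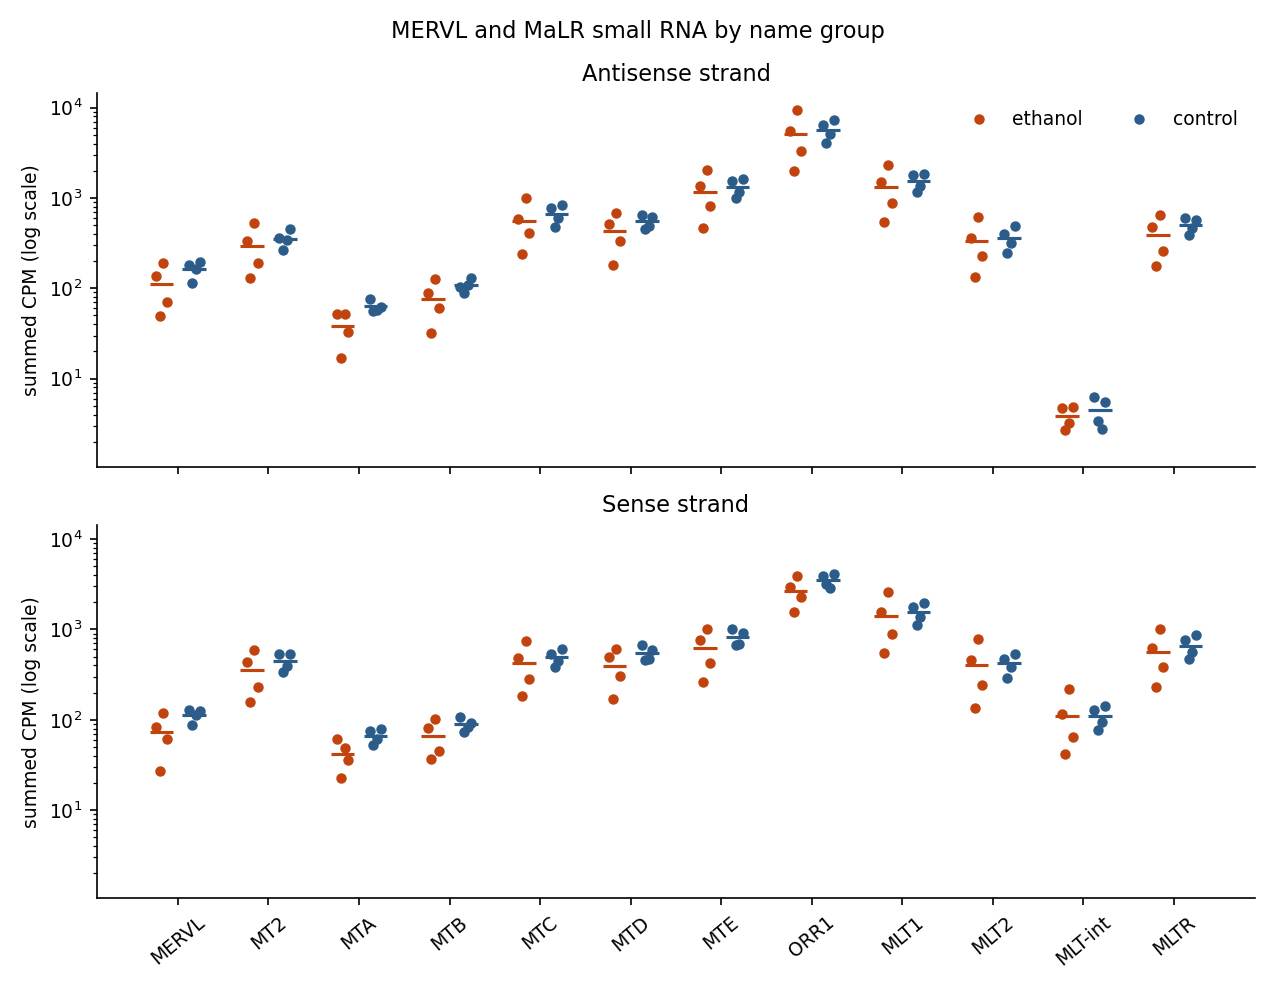
Summed CPM (TMM scaled, log axis) of each name group in every library, antisense strand above and sense strand below. Points are libraries, ethanol left of control, and short lines are group means over 4 libraries; ORR1 is the highest group on both strands, and ethanol replicate 2 is the lowest of the 8 libraries in every group.

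MERVL was covered by few counts. MERVL-int, the internal part of the retrovirus, had 87.5, 33.9, 156 and 43.2 CPM on the antisense strand in ethanol replicates 1 to 4, against 108, 71.4, 107 and 143 CPM in control replicates 1 to 4. The groups overlapped, and 37.1% of these counts came from the single copy MERVL-int_copy278. MERVL_2A-int had 55.5, 14.9, 70.9 and 38.4 CPM on the sense strand in ethanol replicates 1 to 4, against 76.7, 44.5, 56.4 and 61.5 CPM in control replicates 1 to 4, and again the groups overlapped. MT2_Mm, the LTR of MERVL, was named for that role after its values were seen. Its sense strand had 9.84, 5.68, 11.1 and 5.36 CPM in ethanol replicates 1 to 4, against 13.9, 9.83, 9.74 and 14.7 CPM in control replicates 1 to 4, summed over 358 copies of which none held more than 5.18% of the counts. On the sense strand these were the fewest counts of any MT2 name, and MT2B1 had the most, with 203 ± 126 CPM in ethanol and 227 ± 55.8 CPM in control sperm (SD, n = 4 each).

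A few single copies carried most of the signal. One row, ORR1F-int_copy91 on the antisense strand, held 51932 counts, or 7.46% of all MERVL and MaLR counts. The 10 leading rows held 26.0% and the 100 leading rows 63.6%, while 16.8% of rows were at 0 in every library and 82.1% had 1 to 10 counts over all 8 libraries. Leading rows were close to one-stranded. Of the 97 rows with at least 1000 counts, 95 were in copies with more than 95% of their counts on that strand, with a median of 99.9% and a lowest value of 92.0%. The strand of a name therefore often rests on 1 copy: ORR1F-int antisense is ORR1F-int_copy91 for 99.8% of its counts, MLT1A0 sense is MLT1A0_copy8475 for 90.0%, and MTC antisense is MTC_copy19993 for 60.5%.

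The name groups differed in this. Rows with at least 1000 counts supplied 92.9% of MLT-int, 86.0% of MLT2, 69.8% of MLT1 and 69.1% of ORR1 counts. They supplied 15.2% of MERVL counts and 0% of MTA counts. In MTA, a young MT group and one of those used as LTR promoters in oocytes, 89.7% of counts came from rows with at most 14 counts over all 8 libraries, and the leading copy held 3.16%. Such low rows held 58.2% of MTB, 50.7% of MERVL and 49.3% of MTD counts, and the leading copies of these groups held 19.7%, 15.2% and 9.28%. Reads of MTA were thus scattered over many copies, those of MTB, MERVL and MTD were in between, and those of ORR1, MLT1 and MLT2 were concentrated in a few.

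The leading copies moved with the piRNA clusters. ORR1F-int_copy91 antisense had 1465, 494, 2560 and 805 CPM in ethanol replicates 1 to 4, against 1627, 951, 1201 and 1857 CPM in control replicates 1 to 4, a 5.18-fold range over 8 libraries. Per 1000 piRNA cluster counts of the same library it had 8.49, 8.43, 8.42 and 8.23 in ethanol replicates 1 to 4, against 8.78, 8.64, 7.96 and 8.13 in control replicates 1 to 4. On that scale the range was 1.10-fold, and the groups overlapped. ORR1F_copy8196 antisense, the third row by counts, had 632, 208, 1078 and 338 CPM in ethanol replicates 1 to 4, against 750, 454, 588 and 862 CPM in control replicates 1 to 4. Per 1000 piRNA cluster counts it had 3.67, 3.54, 3.55 and 3.46 in ethanol replicates 1 to 4, against 4.05, 4.12, 3.90 and 3.77 in control replicates 1 to 4. All 4 ethanol values lay below the control values on this scale, and not in CPM. The scale was chosen after the values were seen, and no test was made on it for single rows.

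Over the 97 rows with at least 1000 counts, the median fold range across libraries was 5.19 in CPM and 1.30 per 1000 piRNA cluster counts, and 96 of the 97 were narrower on the second scale. The same medians were 5.45 and 1.42 in 349 other transposon rows, 5.20 and 1.12 in 163 piRNA cluster rows, 9.31 and 7.96 in 103 miRNAs, and 6.26 and 13.2 in 260 mRNA exon rows of that size. The likeness to piRNA clusters was thus shared with other transposon copies and was not particular to MERVL and MaLR. The scale is itself made of piRNA cluster counts, so the narrow range of piRNA cluster rows was in part set in advance. The sources used here do not say whether a read inside a cluster was also counted for the transposon copy in it, and this was not tested.

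**Figure D2:**
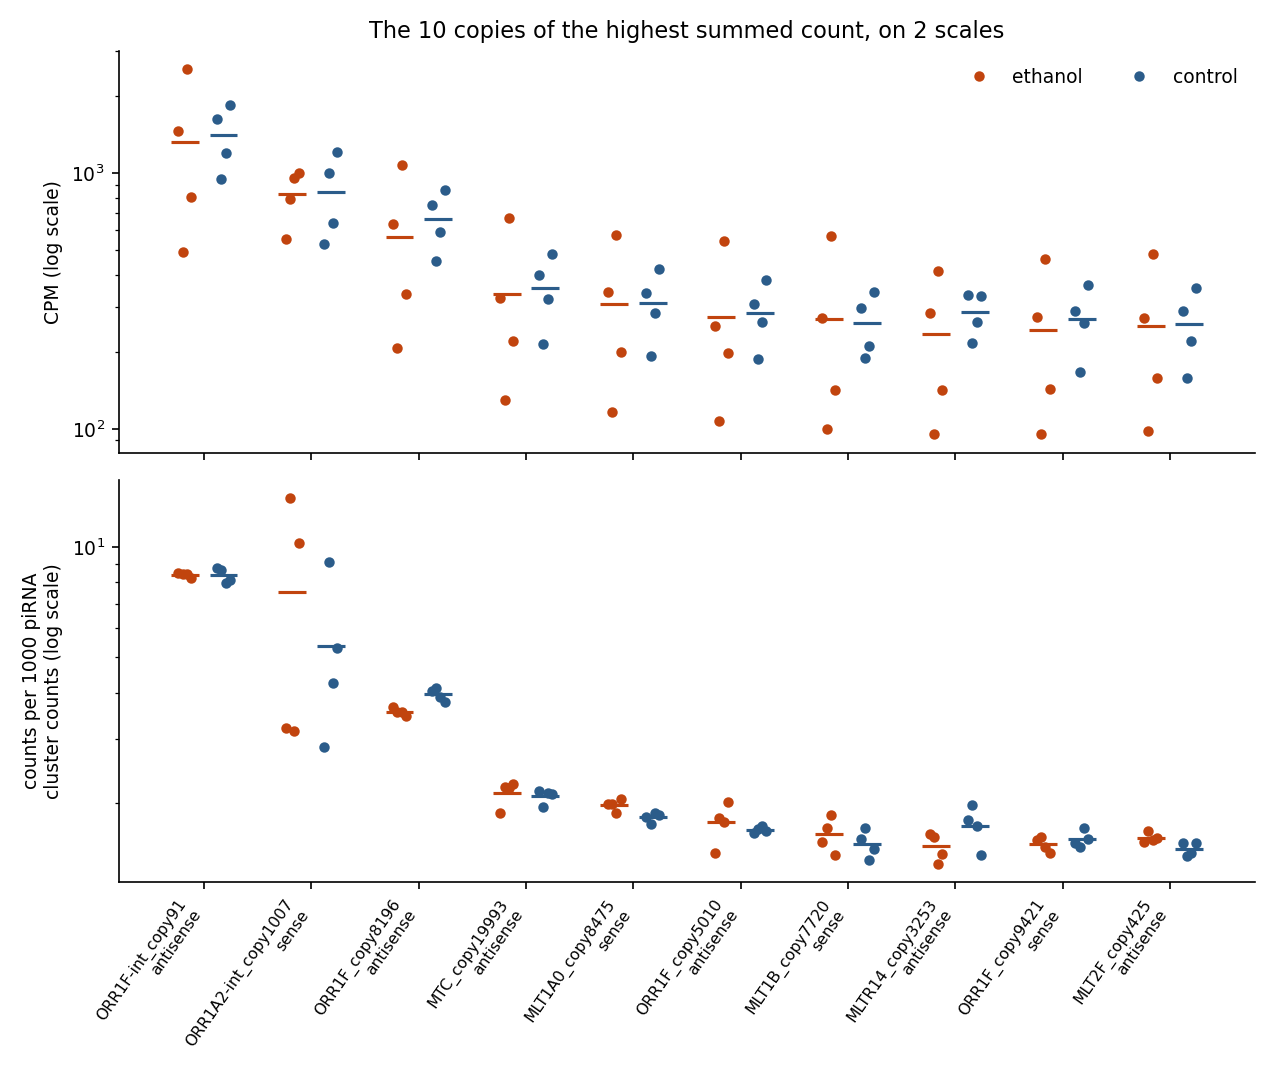
The 10 rows with the highest summed count, in CPM above and per 1000 piRNA cluster counts of the same library below, both on log axes. Points are libraries, ethanol left of control, with group means as short lines; 9 of the 10 rows draw together on the lower scale, and ORR1A2-int_copy1007 sense spreads from 2.84 to 13.6.

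One leading row did not follow the clusters. ORR1A2-int_copy1007 sense, second by counts with 31235, had 554, 795, 958 and 1003 CPM in ethanol replicates 1 to 4, against 527, 1001, 641 and 1212 CPM in control replicates 1 to 4. Its CPM range was 2.30-fold, the narrowest of the 97 rows. Per 1000 piRNA cluster counts it had 3.21, 13.6, 3.15 and 10.3 in ethanol replicates 1 to 4, against 2.84, 9.10, 4.25 and 5.31 in control replicates 1 to 4, a 4.77-fold range and the widest of the 97. Its element, ORR1A2-int, had 32906 sense counts in all and an antisense to sense ratio of 0.0796. The other 8 of the 10 leading rows, in MTC, MLT1A0, ORR1F, MLT1B, MLTR14 and MLT2F, had ranges of 4.37 to 5.65 in CPM and 1.16 to 1.44 per 1000 piRNA cluster counts.

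The many low rows behaved in another way. The 129578 rows beyond rank 1000, ordered by their counts summed over all 8 libraries, held 25.5% of the counts. They summed to 5168, 1824, 4274 and 3132 CPM in ethanol replicates 1 to 4, against 7921, 5691, 5269 and 5505 CPM in control replicates 1 to 4. All 4 ethanol libraries lay below all 4 control libraries, and the log2 ratio of the group means was -0.76. Ranks 11 to 100 overlapped, with 2504 to 13175 CPM in ethanol and 4548 to 9702 CPM in control sperm, and had 42.0 to 43.4 counts per 1000 piRNA cluster counts in ethanol against 41.3 to 42.5 in control sperm. The separation of the low rows is one of TMM-scaled values: as a share of the library they took 0.249% to 0.514% in ethanol and 0.402% to 0.668% in control sperm, and per 1000 piRNA cluster counts 14.1 to 32.0 in ethanol and 24.1 to 51.7 in control sperm, both of which overlap.

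Low rows of other kinds were summed in the same way, taking rows with at most 14 counts over all 8 libraries. Other transposon rows had 9327 to 25770 CPM in ethanol and 26090 to 37535 CPM in control sperm, with a log2 ratio of means of -0.71 against -0.76 in the MERVL and MaLR rows. Intron rows overlapped between the groups, with a log2 ratio of -0.37. Rows of mRNA exons had 11918 to 28644 CPM in ethanol and 9087 to 10925 CPM in control sperm, with no overlap and a log2 ratio of 0.70. These separations too are of TMM-scaled values: as a share of the library all of these kinds of low rows overlapped, with 1.27% to 2.56% in ethanol and 2.0% to 3.17% in control sperm for other transposon rows, and 0.906% to 3.91% in ethanol and 0.767% to 0.963% in control sperm for mRNA exon rows. The log2 ratios of means were then -0.55 in MERVL and MaLR rows, -0.50 in other transposon rows, -0.10 in intron rows and 1.11 in mRNA exon rows. The low MERVL and MaLR rows thus went with other low transposon rows. These ratios are descriptions with no test, and the part of the markers of epididymal epithelium, which were highest in ethanol replicate 2, the library with the lowest MERVL and MaLR tail, was not tested.

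**Figure D3:**
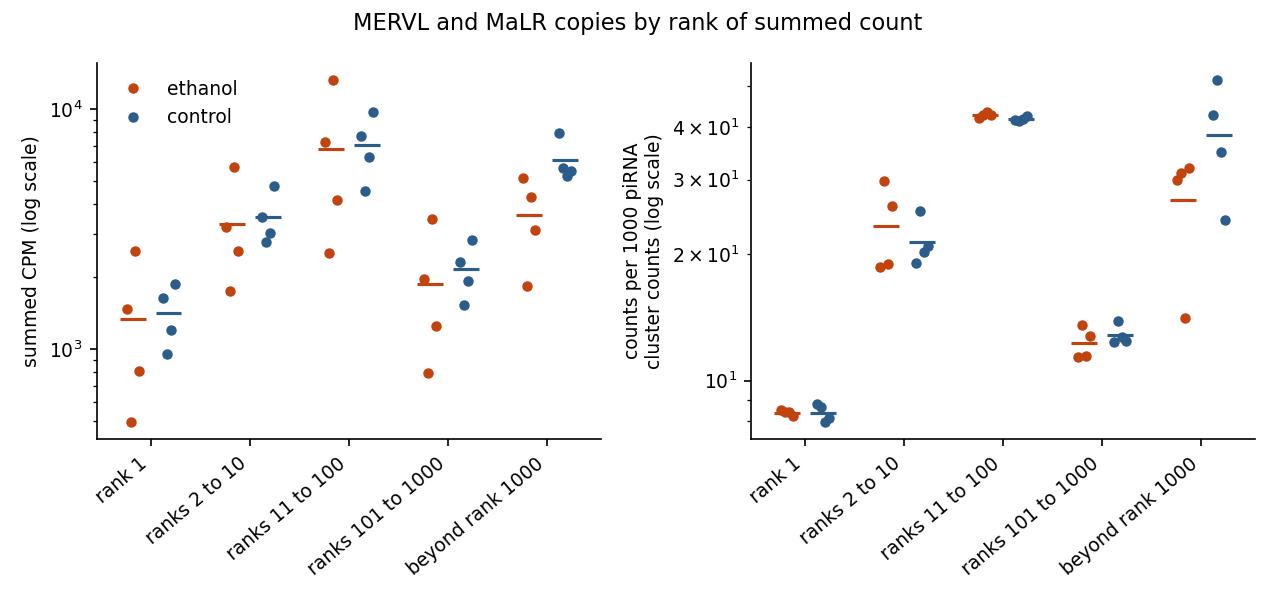
Summed values of MERVL and MaLR rows by rank of count over all libraries, in CPM on the left and per 1000 piRNA cluster counts on the right, on log axes. Points are libraries, ethanol left of control, with group means as short lines; beyond rank 1000 the CPM of the ethanol libraries (1824 to 5168) lies below that of the control libraries (5269 to 7921), and ranks 11 to 100 are nearly level per 1000 piRNA cluster counts.

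The comparison of ethanol with control sperm was then made per name and strand. Of the 284 features 206 had enough counts to be tested, and 0 of the 206 passed in either direction (edgeR quasi-likelihood test, Benjamini-Hochberg adjustment over all 13515 features). Across all features 13.6% passed, 11.9% higher and 1.75% lower in ethanol sperm. At an unadjusted p under 0.05 there were 32 of 206, against 33% of all features, and by other tools the adjusted count was 17 with the DESeq2 Wald test and 0 with limma-voom. All 17 were lower in ethanol sperm and made up 8.25% of the members tested, beside 6.11% of all features called lower and 17.2% called higher by that test, and limma-voom called only 0.0592% of all features. Groups did not overlap in CPM for 25 of the 206 features that were lower in ethanol sperm, and for 0 that were higher. Of all features 6.91% were lower and 14.4% higher with no overlap. Other transposon features had 94 of 870 lower and 5 of 870 higher, so the lower values were not particular to MERVL and MaLR. Leaving out ethanol replicate 1, 2 or 3 gave 8, 1 and 10 members past the threshold, each lower in ethanol sperm, and leaving out ethanol replicate 4 gave 0. These were 3.88%, 0.476% and 4.76% of the members tested, beside 2.91%, 2.65% and 5.65% of all features called lower and 17.2%, 9.55% and 24.1% called in either direction in the same fits. Leaving out any 1 control library also gave 0, but then no more than 10 features of the whole table passed.

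The fold changes leaned one way under the main scaling. Of the 206 tested features 200 had a log2 fold change below 0 with TMM factors over the whole table, against 50.3% of all features, but only 99 did when transposon features alone set the scaling. The median was -0.56, beside -0.48 in 870 other transposon features and -0.01 over all features, and it became 0.02 with transposons alone, where the median of all transposon features moved to 0.06. With library totals 170 were below 0 and the median was -0.33, beside 0.25 over all features. Without the MLTR names 176 of 181 tested features were below 0 with TMM scaling, 0 passed and the median was -0.54. The lower values of MERVL and MaLR features are therefore relative to the rest of the table, and are shared with other transposons. The 10 listed markers of sperm and spermatids also leaned lower, with a median of -0.51 under TMM scaling.

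By name group the medians ran from -0.77 in MLT2 to -0.09 in MLT-int with TMM scaling. All 4 MERVL, 12 MT2, 4 MTA, 4 MTC, 4 MTD, 17 MTE and 55 ORR1 features tested were below 0 on that scale, as were 7 of 8 in MTB, 54 of 56 in MLT1, 14 of 15 in MLT2 and 24 of 25 in MLTR. With transposons alone setting the scale the direction was mixed, and it turned above 0 for 17 of the named features. Among these were MERVL-int antisense, MERVL_2A-int sense, MTA_Mm antisense and the leading features of MT2, MTB, MTC, MTD, MTE and ORR1. The remaining MERVL features, given after their values were seen, were MERVL-int sense and MERVL_2A-int antisense. With TMM scaling they had log2 fold changes of -0.95 ± 0.42 and -0.82 ± 0.40 (SE), and their values with transposons alone are not given here. The smallest adjusted p of any MERVL feature, that of MERVL-int sense with TMM scaling, was 0.131 (edgeR).

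Features made of many low copies had lower values than features made of 1 copy. In the 90 tested features whose leading copy held under 10% of the counts the median log2 fold change was -0.70, in the 73 with 10% to 50% it was -0.49, and in the 43 with 50% or more it was -0.19. Groups did not overlap, with ethanol sperm lower, for 17 of the 90, 8 of the 73 and 0 of the 43 features. The share of all features lower in this way was 6.91%. The classes were set after the values were seen and also differ in depth, with medians of 277, 1241 and 3492 counts, so they are given as a description with no test.

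**Figure D4:**
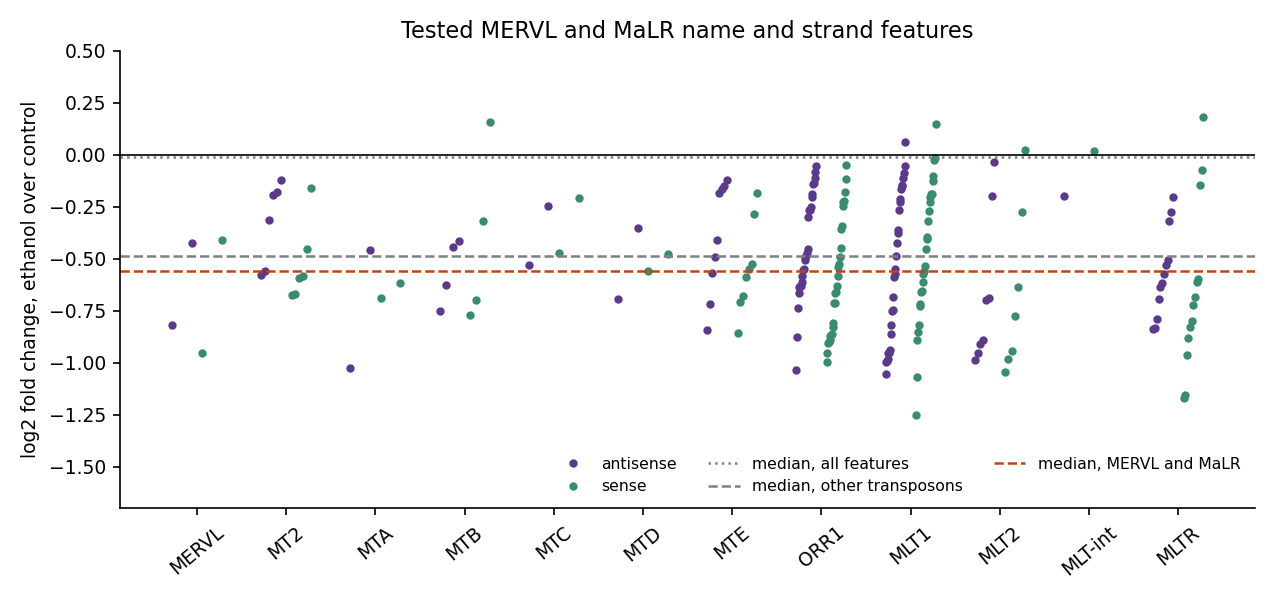
Log2 fold change of ethanol over control for the 206 tested name and strand features by name group, antisense left of sense within each group, sorted by value. Lines mark 0 and the medians of all features (-0.01), other transposons (-0.48) and MERVL and MaLR features (-0.56); with transposons alone setting the scale, 99 of the 206 lie below 0.

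The features nearest the threshold were low and scattered. MLTR18D_MM sense, an ERVK name of 142 rows, had 5.88, 2.95, 4.15 and 3.63 CPM in ethanol replicates 1 to 4, against 13.6, 10.9, 5.24 and 8.07 CPM in control replicates 1 to 4. Ethanol replicate 1 overlapped control replicate 3, and the log2 fold change was -1.17 ± 0.38 (SE, edgeR adjusted p = 0.0547). MLT1G sense, from an old element shared among mammals, had 3.08, 1.68, 2.64 and 1.73 CPM in ethanol replicates 1 to 4, against 9.42, 4.40, 3.24 and 5.01 CPM in control replicates 1 to 4. Its groups did not overlap, and the log2 fold change was -1.25 ± 0.42 (SE, edgeR adjusted p = 0.0578). It rested on 137 counts over 64 rows.

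MLT1H antisense had 9.69, 4.21, 7.17 and 8.65 CPM in ethanol replicates 1 to 4, against 20.2, 19.4, 12.5 and 10.01 CPM in control replicates 1 to 4, with a log2 fold change of -1.05 ± 0.37 (SE, edgeR adjusted p = 0.0702). The groups did not overlap. Its leading copy, MLT1H_copy1711, held 26.5% of the control counts and 0% of the ethanol counts, so part of that gap is 1 copy. ORR1B2-int antisense averaged 5.25 ± 2.07 CPM in ethanol and 10.9 ± 3.98 CPM in control sperm (SD, n = 4 each; edgeR adjusted p = 0.0826), and MLT1I antisense averaged 3.68 ± 1.11 CPM in ethanol and 7.35 ± 2.23 CPM in control sperm (edgeR adjusted p = 0.0847). In both the groups did not overlap and the leading copy held under 5% of the counts.

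The 6 features with a value above 0 had log2 fold changes between 0.02 and 0.18. The one with the smallest p was MTB_Mm-int sense, an internal part of the MTB group, with 7.34, 7.79, 5.28 and 3.63 CPM in ethanol replicates 1 to 4, against 5.23, 4.14, 4.99 and 7.23 CPM in control replicates 1 to 4. The groups overlapped (log2 fold change 0.16 ± 0.37, SE). The others of the 5 with the smallest p were MLTR73 sense, MLT1J-int sense, MLT1E2 antisense and MLT2B3 sense. In MLTR73 sense MLTR73_copy386 held 37.2% of the ethanol counts and 0% of the control counts. Without the leading copy of each name MTB_Mm-int, MLTR73, MLT1E2 and MLT2B3 turned below 0.

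The most abundant features differed by less than their spread. ORR1F antisense, over 2575 rows, had 1503, 549, 2615 and 900 CPM in ethanol replicates 1 to 4, against 1770, 1084, 1435 and 2060 CPM in control replicates 1 to 4 (log2 fold change -0.19 ± 0.51, SE; edgeR adjusted p = 0.819). The libraries stood in the order of their piRNA cluster shares of all counts, except that control replicates 1 and 4 were above ethanol replicate 1. ORR1F-int antisense, MLT1B sense and MLTR14 sense had log2 fold changes of -0.08 ± 0.52, -0.02 ± 0.51 and -0.15 ± 0.50. MTC antisense averaged 527 ± 317 CPM in ethanol and 624 ± 158 CPM in control sperm, and MTC sense 401 ± 244 CPM in ethanol and 463 ± 99.5 CPM in control sperm (SD, n = 4 each). MTEa antisense averaged 415 ± 257 CPM in ethanol and 472 ± 119 CPM in control sperm, and MTE2b antisense 364 ± 233 CPM in ethanol and 395 ± 93.8 CPM in control sperm.

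The leading features of MTD, MTA, MTB and MT2 likewise did not pass. MTD antisense averaged 413 ± 214 CPM in ethanol and 527 ± 91.6 CPM in control sperm, and MTD sense 375 ± 186 CPM in ethanol and 521 ± 101.4 CPM in control sperm. MTA_Mm sense had 33.8, 12.8, 27.7 and 22.5 CPM in ethanol replicates 1 to 4, against 43.2, 27.4, 32.9 and 45.3 CPM in control replicates 1 to 4, with overlap and a log2 fold change of -0.62 ± 0.38 (SE, edgeR adjusted p = 0.266). MTA_Mm antisense, MTB_Mm antisense and MTB_Mm sense had log2 fold changes of -0.46 ± 0.41, -0.42 ± 0.47 and -0.32 ± 0.43, none past the threshold. MT2B antisense had a log2 fold change of -0.12 ± 0.56 and MT2B1 sense one of -0.16 ± 0.49, and 58.6% and 58.1% of their counts came from 1 copy each.

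Single copies were also fitted as rows of the whole table. Of 287 MERVL and MaLR rows with enough counts 0 passed (edgeR quasi-likelihood test, adjusted over 11254 rows), beside 0.16% of all rows tested, 0.0355% higher and 0.124% lower in ethanol sperm. At an unadjusted p under 0.05 there were 4 of the 287, with no share over all rows taken at that level. By other tools the adjusted count was 2 with the DESeq2 Wald test, which called 17.5% of all rows, and 0 with limma-voom, which called 0.00889%. Without ethanol replicate 1, 2 or 3 it was 1, 1 and 2, beside 7.97%, 5.63% and 22.1% of all rows. In each of these fits that called a member the share of members called was below that of all rows. The 2 copies with the smallest p were chosen after their values were seen. MLT1K_copy2441 antisense had 5.29, 1.89, 8.30 and 2.59 CPM in ethanol replicates 1 to 4, against 11.3, 28.7, 14.5 and 10.01 CPM in control replicates 1 to 4, with no overlap (log2 fold change -1.94 ± 0.52, SE; edgeR adjusted p = 0.0518). MTC_copy2797 sense had 3.08, 0.631, 1.70 and 2.42 CPM in ethanol replicates 1 to 4, against 3.93, 2.59, 9.74 and 8.90 CPM in control replicates 1 to 4, with overlap (edgeR adjusted p = 0.0712). Unlike the leading rows, these 2 also spread widely per 1000 piRNA cluster counts, over 9.83-fold and 11.6-fold ranges.

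The antisense to sense ratio asks which strand of an element the small RNA came from. Over all members it was 1.34, 1.18, 1.49 and 1.25 in ethanol replicates 1 to 4, against 1.28, 1.15, 1.34 and 1.34 in control replicates 1 to 4. The groups overlapped, with means of 1.32 ± 0.135 in ethanol and 1.28 ± 0.0880 in control sperm (SD, n = 4 each). Every library had more antisense than sense counts. Other transposons had 0.945 ± 0.284 in ethanol and 0.886 ± 0.0915 in control sperm. Without the 10 leading rows the ratio of the members was 1.23 ± 0.0581 in ethanol and 1.13 ± 0.0684 in control sperm, still above 1 in every library. Beyond the 100 leading rows it was 0.879, 1.05, 0.985 and 1.08 in ethanol replicates 1 to 4, against 0.828, 0.886, 0.962 and 0.914 in control replicates 1 to 4, so the antisense excess rests on the 100 leading rows.

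The name groups differed in strand. Pooled over libraries the ratio was 1.76 in MTE, 1.76 in ORR1, 1.48 in MERVL, 1.33 in MTC and 1.18 in MTB. It was 1.05 in MTD, 0.961 in MLT1, 0.928 in MTA, 0.832 in MLT2, 0.811 in MT2 and 0.725 in MLTR, and 0.0377 in MLT-int. MERVL had 1.62, 1.85, 1.60 and 1.16 in ethanol replicates 1 to 4, against 1.38, 1.30, 1.46 and 1.57 in control replicates 1 to 4, with overlap. In MTE all 4 ethanol libraries (1.769, 1.773, 2.031 and 1.896) were above all 4 control libraries (1.551, 1.473, 1.680 and 1.765). The lowest ethanol value, 1.769, was barely above the highest control value, 1.765. In MTD the ethanol libraries (1.05, 1.07, 1.13 and 1.08) were likewise above the control libraries (0.956, 1.002, 1.04 and 1.04). The other name groups overlapped. Among single transposon names tested, 4.82% had a higher ratio in ethanol sperm with no overlap. The sums over a name group were not tested.

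**Figure D5:**
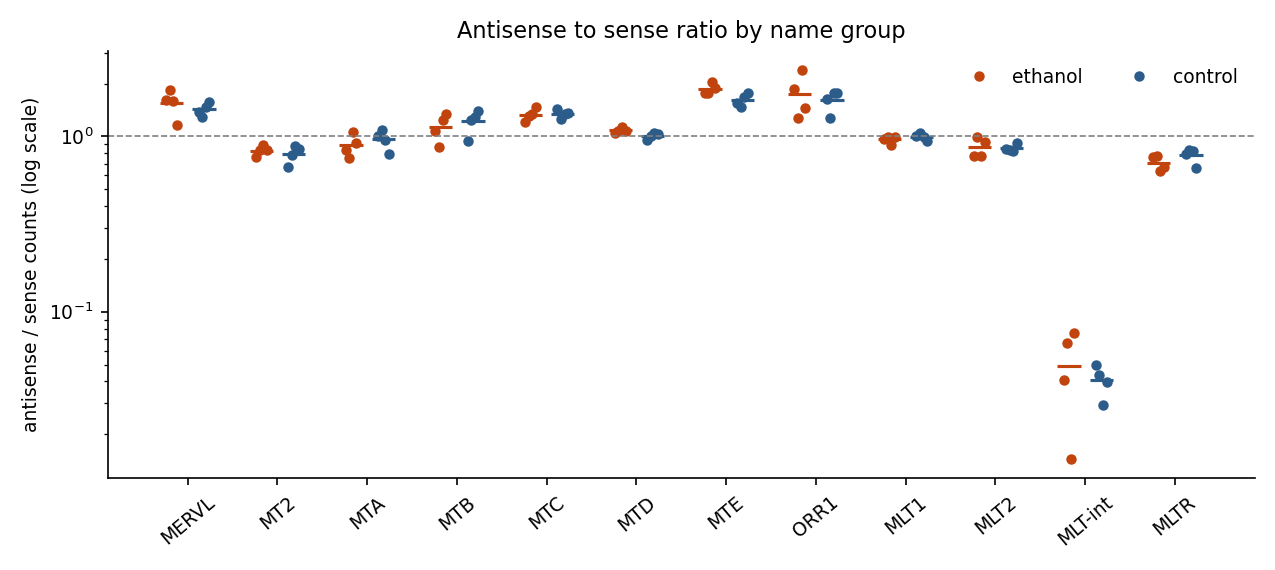
Antisense to sense ratio of summed counts in each name group and library, on a log axis with a dashed line at equal strands. Points are libraries, ethanol left of control, with group means as short lines; MTE, ORR1 and MERVL lie above 1 in all 8 libraries and MLT-int lies below 0.1.

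Single names reached far more extreme ratios. Among names with at least 1000 counts the highest pooled ratios were 383 in ORR1F-int, 87.5 in MLT2F and 31.2 in MLT1F-int, and the lowest 0.0377 in MLT-int, 0.0493 in MLT1F and 0.0796 in ORR1A2-int. ORR1F-int was antisense in every library, with ratios of 334 to 566 in ethanol and 160 to 483 in control sperm. MLT2F and MLT1F-int likewise stayed above 15 in every library, in both groups. In ORR1F-int and ORR1A2-int 1 copy held most of the counts of the leading strand. The leading copy held 95.1% of MLT2F antisense, 64.0% of MLT1F-int antisense, 96.1% of MLT1F sense and 48.9% of MLT-int sense counts.

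Strand ratios were tested within libraries, with the library as a block. Of 99 member names with enough counts on both strands 0 passed (edgeR quasi-likelihood test of the strand by group term, adjusted over 477 transposon names), beside 0.419% of all names tested. At an unadjusted p under 0.05 there were 7 of the 99, with no share over all names taken at that level. With limma on the log2 ratio the adjusted count was also 0. The change was above 0 for 60 of the 99. Groups did not overlap for 3 of them with a higher ratio in ethanol sperm, against a background of 4.82%, and for 0 with a lower one, against 1.26%. MLT1K had ratios of 19.5, 23.1, 35.1 and 35.6 in ethanol replicates 1 to 4, against 19.7, 12.8, 18.6 and 14.2 in control replicates 1 to 4, with ethanol replicate 1 inside the control range (log2 change 0.77 ± 0.25, SE; edgeR adjusted p = 0.323). MLT1L moved the other way, with 0.165, 0.200, 0.147 and 0.333 in ethanol replicates 1 to 4, against 0.408, 0.463, 0.369 and 0.307 in control replicates 1 to 4 (log2 change -0.94 ± 0.31, SE; edgeR adjusted p = 0.323).

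MLT1E2 had ratios of 5.57 to 9.74 in ethanol and 3.49 to 5.24 in control sperm, with no overlap (log2 change 0.71 ± 0.26, SE; edgeR adjusted p = 0.371). ORR1D2-int overlapped, with 22.5 to 36.4 in ethanol and 15.5 to 26.3 in control sperm (log2 change 0.55 ± 0.21, SE; edgeR adjusted p = 0.380). Of the names with a lower ratio, MTB_Mm-int and MLTR73 had log2 changes of -0.87 ± 0.41 and -0.73 ± 0.42 (SE), with overlapping groups. None of these changes passed.

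Transcripts linked to MERVL were measured as fragments of mRNA exons in the same libraries. Of 22 genes listed as expressed with MERVL in the cleavage-stage embryo 12 were in the table and 1 had enough counts to be tested. That gene, Arg2, which codes for mitochondrial arginase and is also active in adult tissues, rose: it had 7.78, 19.2, 4.15 and 6.57 CPM in ethanol replicates 1 to 4, against 0.523, 3.10, 2.996 and 2.50 CPM in control replicates 1 to 4 (log2 fold change 2.02 ± 0.55, SE; edgeR adjusted p = 0.0325). Of 26 genes for silencers of MERVL and other LTR elements 16 could be tested. Of these 3 rose and 0 fell, and the median over the 16 was 1.05 on the log2 scale. The background for a higher call was 11.9% of all features. That background mixes all kinds of features, and none was taken over mRNA exons alone. As a kind, mRNA exon rows with at most 14 counts were also higher in ethanol sperm, with a log2 ratio of mean CPM of 0.70.

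The 3 that rose were Hdac1, a histone deacetylase, Atrx, a chromatin remodeller that acts with histone H3.3 at repeats, and Max, a partner of MYC and of a Polycomb complex that silences germline genes. Hdac1 had 5.58, 15.4, 4.71 and 5.71 CPM in ethanol replicates 1 to 4, against 1.83, 1.29, 1.75 and 3.89 CPM in control replicates 1 to 4, with no overlap (log2 fold change 1.83 ± 0.49, SE; edgeR adjusted p = 0.0323). Atrx had log2 fold change 1.65 ± 0.48 and Max 1.57 ± 0.47 (SE, edgeR adjusted p = 0.0375 and 0.0423). Ethanol replicate 2 was the highest library for Arg2, Hdac1, Atrx and Max.

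Transcripts of epididymal epithelium moved with these genes. Of 10 listed markers 9 were in the table and 4 were tested, of which Crisp1, Spink8 and Adam7 rose and 0 fell. Crisp1, a protein secreted onto sperm by the epididymis, had 2374, 9631, 770 and 1138 CPM in ethanol replicates 1 to 4, against 347, 447, 522 and 635 CPM in control replicates 1 to 4 (log2 fold change 2.83 ± 0.71, SE; edgeR adjusted p = 0.0292). Across all features 11.9% were called higher and 1.75% lower in ethanol sperm. Of the markers of blood and immune cells 5 of 10 were tested and the haemoglobin genes Hba-a1 and Hba-a2 fell. These are near-identical genes whose values were close but not equal, and they may share reads. The list summed to 8.68 to 33.7 CPM in ethanol against 30.1 to 57.7 CPM in control sperm. Of 8 markers of muscle and stroma all were tested, 0 passed, and they summed to 28.5 to 89.4 CPM in ethanol and 60.1 to 160 CPM in control sperm. The sperm markers summed to 363, 215, 575 and 445 CPM in ethanol replicates 1 to 4, against 624, 527, 656 and 690 CPM in control replicates 1 to 4. The part of these cell types in the MERVL and MaLR values was not tested.

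These gene calls depend on the libraries. Of the 9 listed genes that passed, 0 passed when any 1 control library was left out, and 0 with limma-voom or with scaling by piRNA cluster counts. Few features of the whole table passed in these settings, so the loss is not particular to these genes. No more than 10 passed without a control library, 0.0592% with limma-voom and 0 with scaling by piRNA cluster counts. Without ethanol replicate 2 Adam7, Atrx and Max no longer passed, and the log2 fold changes were 1.71 in Adam7, 1.48 in Crisp1, 1.46 in Spink8, 1.37 in Arg2, 1.23 in Hdac1, 1.11 in Max and 0.92 in Atrx. Without ethanol replicate 4 Atrx and Max no longer passed, and the log2 fold changes of Hba-a1 and Hba-a2 were -2.75 and -2.86. Without ethanol replicate 1 all 9 passed, and without ethanol replicate 3 Adam7 did not. The fits without ethanol replicates 1, 2, 3 and 4 called 17.2%, 9.55%, 24.1% and 7.4% of all features in either direction.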

How the data were processed

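Small RNA of sperm was sequenced after Trizol extraction and Qiaseq library preparation, per the labels' protocols. For each annotated row the authors deposited whole-number counts in every library, with no normalization recorded. The aligner, genome build, counting rule and use of molecular identifiers are not given in the sources used here, nor is how reads with several alignments were placed. Rows with 1 name and type were summed, except for piRNA clusters, which gave 45090 features. Of piRNA cluster rows whose names differed only in a final number, the one with the most counts was kept. The piRNA cluster shares and the scale made from them use the kept rows. Features were fitted by group with the robust quasi-likelihood method of edgeR 4.0.16 under R 4.3.3, after TMM scaling and filterByExpr with a minimum count of 10. P-values were adjusted by Benjamini-Hochberg over every feature, with a threshold of 0.05. SE is the absolute log2 fold change divided by the square root of F. Copies were fitted in the same way as single rows. Strand ratios were fitted as a strand by group term with terms for library and strand. Groups and replicate numbers came from sample titles.

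The fits were tested on simulated counts. Replicates differed beyond sampling noise, with chi-square statistics per degree of freedom of 13.4 to 164, so all were kept. The members, name groups and gene lists were chosen with earlier results of these data known. Text names, by rule, the 2 most abundant tested features of each of 9 name groups, the 5 features of smallest p among those higher and among those lower, the 10 leading copies with the leading copies of named features, the 3 strand ratios of smallest p up and down and the 3 highest and lowest, and list genes past the threshold; others are said to be chosen after their values were seen. Alternatives used DESeq2 1.42.0 and limma 3.58.1, other scalings and filters, the replicate number as a block, libraries left out, and copies left out. Tables and plots were made with Python 3.11.15, numpy 2.4.6, pandas 2.3.3 and matplotlib 3.10.9.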

Additional observations from a re-analysis of the deposited data

How the results depend on the processing

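The count of name and strand features past the threshold, 0, became 17 with the DESeq2 Wald test, 1 with no count filter, 1 with a minimum count of 20 and 2 without ethanol replicates 3 and 4, and ran from 0 to 10 when 1 library was left out. All of these were lower in ethanol sperm, and in the first 4 settings 6.11%, 0.938%, 2.55% and 3.73% of all features were called lower and 23.3%, 7.65%, 15.5% and 20.5% in either direction. The count of copies, 0, became 15 among rows with at least 5 counts, 2 with the DESeq2 Wald test and 4 without ethanol replicates 3 and 4, and ran from 0 to 2 when 1 library was left out. In the first 3 of these settings 1.80%, 17.5% and 19.9% of all rows were called, more than the 0.293%, 0.697% and 1.27% of members. The count of strand ratios was 0 in every setting run. In the other settings run for features and copies, which were DESeq2 size factors, library totals, limma-voom, scaling by piRNA cluster counts, leaving out ethanol replicates 1 and 2 and, for features, transposons alone or no leading copies, the count stayed at 0. Scaling by piRNA cluster counts was chosen after seeing the data, and with it 0 features of the whole table passed. The share of the library and the antisense to sense ratio of all members moved by less than the spread between replicates in every setting run. Of the 9 listed genes past the threshold, 7 passed with DESeq2 size factors, 8 each with the DESeq2 Wald test, library totals, no count filter or the replicate block, and 0 without ethanol replicates 1 and 2, with no change of sign in any setting run. The cause of these changes was not tested.

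Replicate numbers are shared between the groups. Same-numbered libraries had correlations of deviations of 0.357, 0.215, -0.137 and -0.0243. Of 4 control libraries, 1 correlated best with the ethanol library of its own number. So few values cannot show whether the numbers pair the samples, and the main fits did not use the numbers. With the replicate block 12 features, 3 copies and 0 strand ratios passed. The 12 features and 3 copies, all lower in ethanol sperm, were 5.83% and 1.05% of the members tested, beside 5.89% and 4.02% of all features and rows called lower and 24.4% and 17.3% in either direction, and 0.839% of all strand ratios were called.

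Named features turned in sign as follows, given as log2 fold changes of ethanol over control. With transposons alone setting the scale, these became MERVL-int antisense 0.048, MERVL_2A-int sense 0.098, MLT1B sense 0.44, MLTR14 sense 0.35, MT2B1 sense 0.34, MT2B antisense 0.25, MTA_Mm antisense 0.064, MTB_Mm antisense 0.050, MTB_Mm sense 0.23, MTC antisense 0.27, MTC sense 0.29, MTD antisense 0.17, MTD sense 0.061, MTE2b antisense 0.36, MTEa antisense 0.31, ORR1F-int antisense 0.38 and ORR1F antisense 0.29. With library totals these became MLT1B sense 0.15, MLTR14 sense 0.037, MT2B1 sense 0.032, MT2B antisense 0.035, MTE2b antisense 0.058 and ORR1F-int antisense 0.091. Scaling by piRNA cluster counts gave MLT1B sense 0.045 and ORR1F-int antisense 0.0023, and no count filter gave MLT1B sense 0.031. Without the leading copy of each name the values were MLT1E2 antisense -0.55, MLT2B3 sense -0.075, MLTR73 sense -0.43 and MTB_Mm-int sense -0.59. MLT1E2 antisense was -0.18 with limma-voom and -0.17 with the replicate block, and MLT2B3 sense was -0.25 and -0.26 there and -0.031 with DESeq2 size factors or the DESeq2 Wald test. Without ethanol replicates 1 and 2 the values were MLT1B sense 0.28, MLTR14 sense 0.15, MLTR73 sense -0.34, MT2B1 sense 0.035, MT2B antisense 0.14, MTB_Mm-int sense -0.30, MTC antisense 0.045, MTC sense 0.027, MTE2b antisense 0.15, MTEa antisense 0.077, ORR1F-int antisense 0.19 and ORR1F antisense 0.088. Without ethanol replicates 3 and 4 the values were MLT1E2 antisense -0.38, MLT1J-int sense -0.45 and MLT2B3 sense -0.58. With 1 library left out in turn the ranges that crossed 0 were -0.68 to 0.18 for MLT1B sense, -0.48 to 0.26 for MLT1E2 antisense, -0.27 to 0.35 for MLT1J-int sense, -0.65 to 0.25 for MLT2B3 sense, -0.74 to 0.051 for MLTR14 sense, -0.51 to 0.37 for MLTR73 sense, -0.88 to 0.11 for MT2B antisense, -0.69 to 0.025 for MT2B1 sense, -0.061 to 0.28 for MTB_Mm-int sense, -0.70 to 0.085 for MTE2b antisense, -0.73 to 0.016 for MTEa antisense, -0.79 to 0.0066 for ORR1F antisense and -0.71 to 0.12 for ORR1F-int antisense. Depth limits single copies, since 82.1% of the rows had 1 to 10 counts over all libraries.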

Other observations

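Some copies carried the same counts. Among the 372 MERVL and MaLR rows with at least 50 counts, 13 rows in 5 sets had counts identical to another row of the same name and strand in all 8 libraries. The sets were 2 pairs of MLT1A0 antisense copies with 2332 and 2136 counts each, a pair and a set of 4 ORR1E antisense copies with 652 and 277 counts each, and a set of 3 MT2A sense copies with 188 counts each. No source here says how a read that aligns to several copies was counted, and a sum over copies may hold such a read more than once. With each set counted as 1 row, MLT1A0 antisense had 6732 counts in place of 11200, and the pooled antisense to sense ratio was 0.514 in place of 0.854 in MLT1A0, 1.73 in place of 1.88 in ORR1E and 0.921 in place of 0.772 in MT2A. The ratio of the MLT1 group was then 0.880 in place of 0.961, that of all members was 1.31 in place of 1.33, and 0.909% of the members' counts were removed.

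The number of MERVL and MaLR rows with any count was 27525, 7788, 17913 and 14979 in ethanol replicates 1 to 4, against 23921, 18311, 17429 and 16289 in control replicates 1 to 4. Ethanol replicate 2, the library with the fewest counts, had the fewest such rows.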
